A study of Mus musculus with 40 samples.

Results

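The 10 genes described here encode the NF-κB subunits and their inhibitors. They are the Rel family subunits Nfkb1, Nfkb2, Rela, Relb and Rel, the inhibitors of κB (IκB) Nfkbia, Nfkbib and Nfkbie, the nuclear IκB gene Nfkbiz, and Tnfaip3, the gene for the ubiquitin-editing protein A20. They were chosen by name, with earlier results of these data known, from 25210 genes tested. All 10 passed the filter of at least 10 counts over the 40 libraries. Poly-A RNA was sequenced from passage 1 cardiac fibroblasts of adult C57BL/6J TAK1fl/fl mice, in which LoxP sites flank exon 2 of Map3k7, the gene for TGFβ-activated kinase 1 (TAK1). Cells received adenovirus with LacZ (control) or iCre, both under the CMV promoter, were serum-starved, and then spent 24 h without ligand (CTRL) or under a single ligand, at 20 ng/ml for bFGF, 15 ng/ml for IL-1β and 10 ng/ml for both TGFβ and TNFα. This made 10 groups of 4 replicates. All groups shared the floxed genotype, exposure to an adenovirus, and earlier growth in serum with bFGF, and the share of cells that recombined is not measured by these counts.

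NF-κB transcription factors are dimers of Rel family proteins. In resting cells IκB proteins hold them in the cytoplasm. Receptors for IL-1 and TNF act through TAK1 and the IκB kinases, which mark IκB for degradation, so that dimers enter the nucleus. Nfkb1 and Nfkb2 encode precursors that are cut to DNA-binding subunits without a transactivation domain, whereas Rela, Relb and Rel encode subunits that have one. Several of the genes for subunits and inhibitors are themselves known NF-κB targets, which makes feedback loops.

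On GRCm38 the subunit genes lie at chr3:135584655-135691547 (Nfkb1, ENSMUSG00000028163, minus strand), chr19:46304320-46312385 (Nfkb2, ENSMUSG00000025225, plus), chr19:5637483-5648130 (Rela, ENSMUSG00000024927, plus), chr7:19606217-19629438 (Relb, ENSMUSG00000002983, minus) and chr11:23736847-23770970 (Rel, ENSMUSG00000020275, minus). The inhibitor genes lie at chr12:55489410-55492647 (Nfkbia, ENSMUSG00000021025, minus), chr7:28758251-28767512 (Nfkbib, ENSMUSG00000030595, minus), chr17:45555703-45563169 (Nfkbie, ENSMUSG00000023947, plus), chr16:55811375-55838899 (Nfkbiz, ENSMUSG00000035356, minus) and chr10:19000910-19015657 (Tnfaip3, ENSMUSG00000019850, minus).

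Libraries held 25360947 to 66160732 counts, and the lowest count of any of the 10 genes in any library was 250 (Nfkbie, iCre with TGFβ). Summed CPM (counts scaled to a common library size with TMM factors) of 10 fibroblast markers lay between 15400 and 69700 in every library, against 16.4 to 159 for 6 macrophage and leukocyte markers, 0.746 to 13.4 for 3 endothelial markers 71.7 to 1920 for 3 pericyte and smooth muscle markers and 0.326 to 110 for 2 cardiomyocyte markers. The highest values of the macrophage and leukocyte markers were 2.08 CPM for Ptprc, 2.92 for Itgam, 5.68 for Adgre1, 7.84 for Cd68, 13.9 for Csf1r and 130 for Lyz2. Without ligand, Map3k7 averaged 153 ± 6.51 CPM in LacZ (SD over the 4 replicates) against 127 ± 4.27 CPM in iCre, and the groups did not overlap. It differed by -0.28 ± 0.07 (log2, SE), which did not pass the test over all genes (adjusted p = 0.137, edgeR's quasi-likelihood test with Benjamini-Hochberg adjustment). With bFGF it was -0.40, again without overlap, and did not pass (adjusted p = 0.351, edgeR). With TGFβ, IL-1β and TNFα the difference was -0.67, -0.82 and -0.71 and passed. The counts cover all exons of Map3k7, so they check the removal of exon 2 only in part. In bulk RNA, fewer cells of a type and less RNA per cell cannot be told apart.

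Without ligand in LacZ, the subunits were led by Rela. Per kilobase of merged exons, Rela held 43.8% ± 0.79 of the summed Rel family counts (SD, n = 4), Nfkb2 25.3% ± 1.27, Nfkb1 14.8% ± 0.968, Relb 13.5% ± 0.656 and Rel 2.58% ± 0.261. The share of Nfkb1 depended on its length: merged exons span 12061 bases and the longest transcript 4149 bases, and with the latter Nfkb1 held 30.4% and Rela 35.1%. Rel, the gene for c-Rel, was the lowest subunit under either length. Among the inhibitors, Nfkbia, the gene for IκBα, stood at 17.1 CPM per kilobase, Nfkbib (IκBβ) at 8.06 and Nfkbie (IκBε) at 4.12. Tnfaip3 stood at 1.51 CPM per kilobase.

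Promoter sequences were available for 7 of the 10 genes (RefSeq, GRCm38.p6, from 250 bases before to 50 bases after each annotated start) and are shown because most members rose together with IL-1β and TNFα. The κB consensus, a 10-base motif read on both strands, was found in the windows of 5 of these 7 genes, against 5.14% of the 27025 genes with a window. No match lay in the windows of Rela and Nfkbib. The stretches with matches nearest to the start are given 5′ to 3′ on the gene's strand, with the bases of the matches in capitals.
Nfkbia: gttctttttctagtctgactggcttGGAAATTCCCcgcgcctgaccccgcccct
Nfkb2: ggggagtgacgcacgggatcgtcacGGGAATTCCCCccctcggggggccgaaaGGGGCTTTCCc
Rel: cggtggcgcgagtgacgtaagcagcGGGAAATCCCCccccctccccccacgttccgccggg
Nfkbie: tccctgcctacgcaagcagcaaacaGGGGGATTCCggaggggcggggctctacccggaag
Tnfaip3: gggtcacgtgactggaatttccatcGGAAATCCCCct
These lie at chr12:55492648-55492701 (minus strand), chr19:46304673-46304736 (plus), chr11:23771026-23771086 (minus), chr17:45555569-45555628 (plus) and chr10:19015411-19015447 (minus). In Nfkbia the match lay 29 to 20 bases before the start, and in Tnfaip3 12 to 3 bases before it. The Nfkb2 stretch holds 3 matches, of which a pair overlaps, and the Rel stretch holds 2 that overlap. Nfkb2 had matches at its other starts too. Tnfaip3 had another match 125 to 116 bases before the same start, while the window of its other annotated start held none. A match is a stretch of letters and was not tested as a binding site.

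**Figure D1:**
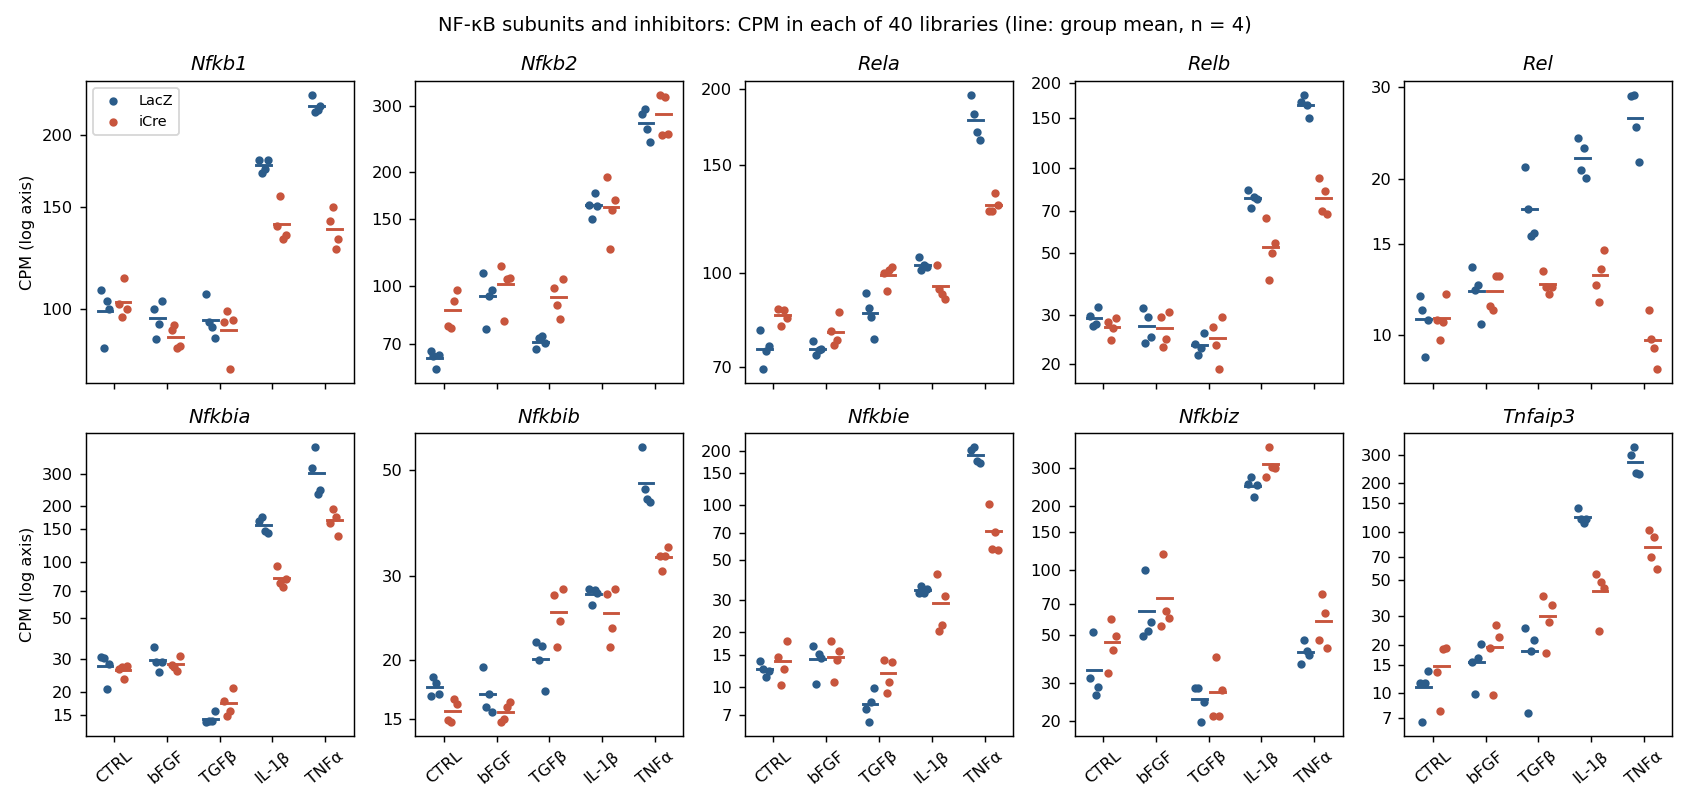
CPM of each of the 10 genes (log axis, a panel per gene) in all 40 libraries, by ligand, for LacZ (blue) and iCre (red); points are single libraries and lines group means of 4. With IL-1β and TNFα the LacZ points of every gene except Nfkbiz with TNFα sit above those of CTRL, and Nfkbiz stands apart, at 219 to 271 CPM with IL-1β and 36.9 to 47.6 CPM with TNFα.

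In LacZ fibroblasts, IL-1β raised all 10 genes, and TNFα raised 9, all except Nfkbiz. Of all genes tested, 20.7% passed with IL-1β and 21.3% with TNFα, in either direction (11.1% and 10.9% higher). Over the 10 genes the log2 fold changes had a median of 1.39 under IL-1β and 1.75 under TNFα, and over all genes tested of -0.10 and -0.08. No library of a raised gene overlapped with CTRL. Here and below, the share of all genes without overlap was not counted, so a lack of overlap is description only. Of the 6 macrophage and leukocyte markers, 1 rose with IL-1β. Of the 10 fibroblast markers 2 rose and 1 fell with IL-1β, and 1 fell with TNFα. Of the 3 pericyte and smooth muscle markers 2 fell with IL-1β and 1 fell with TNFα. In the same libraries the summed CPM of the cardiomyocyte markers went from a median of 35.9 without ligand to 1.06 under IL-1β and 3.35 under TNFα, and 1 of the 2 fell under each ligand. The part of these markers in the changes of the 10 genes was not tested. The largest fold change under either ligand was that of Tnfaip3, and the smallest that passed was that of Nfkb1 with TNFα and of Rela with IL-1β.

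Nfkbia, whose product is the IκB that is degraded and made anew fastest in NF-κB signaling, stood at 30.7, 30.6, 20.8 and 28.3 CPM in the 4 CTRL replicates of LacZ. It reached 166, 176, 148 and 144 CPM with IL-1β and 320, 416, 233 and 245 CPM with TNFα. All libraries with either ligand were above all CTRL libraries, and all libraries with TNFα were above all with IL-1β. The log2 fold change was 2.54 ± 0.13 (SE) with IL-1β (adjusted p = 3.23e-06, edgeR's quasi-likelihood test with Benjamini-Hochberg adjustment, as for every adjusted p below unless stated) and 3.46 ± 0.21 with TNFα (adjusted p = 8.2e-06).

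Nfkbie differed more between the ligands than Nfkbia and Nfkbib did. It stood at 13.9, 12.5, 11.3 and 12.3 CPM in CTRL, at 33, 36.1, 32.9 and 34.4 CPM with IL-1β, and at 202, 209, 176 and 170 CPM with TNFα. It rose 2.74-fold under IL-1β and 15.1-fold under TNFα. In the direct comparison IL-1β libraries were 5.54-fold lower than TNFα libraries (log2 difference -2.47 ± 0.09, adjusted p = 5.93e-07).

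Nfkbib moved least among these 3 inhibitors, from 16.8 to 18.4 CPM in CTRL to 26 to 28.1 CPM with IL-1β and 42.8 to 55.8 CPM with TNFα (fold changes 1.58 and 2.69). Its exons share 42 bases with Sirt2 and 314 with Ccer2 on the opposite strand, and those of Nfkb2 share 299 with Psd and 531 with AC114539.1. The strand setting of the counting is not given in the sources used here, so reads in these bases cannot be assigned.

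Tnfaip3, whose product A20 limits signaling upstream of the IκB kinases, had the largest fold changes among the 10 genes. It stood at 11.6, 6.65, 11.6 and 13.8 CPM in CTRL, at 141, 120, 113 and 119 CPM with IL-1β, and at 296, 333, 229 and 226 CPM with TNFα. The fold changes were 11.3 and 24.8, and the 3 groups did not overlap. Replicate 2 held the lowest value of Tnfaip3 in 7 of the 10 groups.

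Nfkbiz had the opposite ligand preference. Its product, IκBζ, is a nuclear IκB that acts as a cofactor for a subset of NF-κB target genes. It stood at 31.5, 51.6, 26.3 and 28.8 CPM in CTRL, at 252, 271, 219 and 248 CPM with IL-1β, and at 36.9, 47.6, 42.2 and 40.6 CPM with TNFα. With IL-1β all libraries were above all others, at a fold change of 7.26 (log2 2.86 ± 0.20, adjusted p = 1.12e-05). The TNFα values lay within the range of CTRL, with a log2 difference of 0.28 ± 0.19 that did not pass (adjusted p = 0.337). It passed with the replicate number as a block (0.32, adjusted p = 0.0108, edgeR) and without replicate 2 (0.46, adjusted p = 0.00411). IL-1β exceeded TNFα 5.92-fold (adjusted p = 1.07e-06), and Nfkbiz was the only 1 of the 10 genes higher with IL-1β than with TNFα. Replicate 2 held the highest value of Nfkbiz in all 10 groups.

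Among the subunits, Relb and Nfkb2, whose products form the main dimer of the non-canonical pathway, rose most. Relb stood at 29.7, 27.5, 27.8 and 31.9 CPM in CTRL, at 83.5, 72, 78.5 and 77.8 CPM with IL-1β, and at 171, 182, 167 and 150 CPM with TNFα. Nfkb2 stood at 67, 65, 59.9 and 65.5 CPM in CTRL, at 164, 150, 176 and 163 CPM with IL-1β, and at 286, 295, 261 and 240 CPM with TNFα. Neither gene overlapped between the 3 groups. The fold changes with IL-1β and TNFα were 2.69 and 5.73 for Relb, and 2.56 and 4.21 for Nfkb2.

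Nfkb1, Rela and Rel rose less. Nfkb1 rose 1.8-fold with IL-1β and 2.27-fold with TNFα, and Rela, the main transactivating subunit of the canonical pathway, rose 1.39-fold and 2.38-fold. Rel, whose product c-Rel is best known from lymphocytes, rose from 9.08 to 11.9 CPM in CTRL to 20.1 to 23.9 CPM with IL-1β and 21.5 to 29 CPM with TNFα. Rel was the only 1 of the 10 genes that did not pass in the comparison of the ligands (log2 difference of IL-1β and TNFα -0.25 ± 0.11, adjusted p = 0.229). The other subunits and Nfkbia, Nfkbib, Nfkbie and Tnfaip3 were lower with IL-1β. In that comparison 9.62% of all genes passed. Under the block Rel passed too, which makes 10 of 10 (24.2% of all genes), and Nfkb1 did not pass without replicate 3 or 4 (adjusted p = 0.11 and 0.0814).

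The composition of the Rel family moved with the ligand (description, not tested). In LacZ the share of Relb per kilobase went from 13.5% ± 0.656 in CTRL to 18.8% ± 0.558 with IL-1β and 23.6% ± 0.791 with TNFα. The share of Nfkb2 went from 25.3% ± 1.27 to 33.3% ± 1.21 and 32.3% ± 0.801, and that of Rela from 43.8% ± 0.79 to 31.4% ± 0.828 and 31.9% ± 0.979. In these 3 genes the ranges with either ligand did not overlap with CTRL.

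bFGF and TGFβ changed fewer members. With bFGF in LacZ, 2 of 10 passed, against 11.6% of all genes: Nfkb2 (64.3 to 93.9 CPM on average, log2 0.56 ± 0.11, adjusted p = 0.0106) and Nfkbiz (log2 0.93 ± 0.27, adjusted p = 0.0499). In Nfkbiz a bFGF library, at 49.5 CPM, lay below the highest CTRL library, at 51.6 CPM. Summed fibroblast markers ranged from 22800 to 31200 CPM with bFGF and from 30400 to 47700 in CTRL, and 1 rose and 2 fell. The cardiomyocyte sum had medians of 9.7 with bFGF and 35.9 in CTRL, and 1 pericyte and smooth muscle marker fell. The part of these markers was not tested. In iCre no member passed with bFGF, where 2.42% of all genes did and 2 members had an unadjusted p under 0.05 in edgeR. With the replicate block, Nfkbiz and Tnfaip3 passed there (16.7% of all genes). In LacZ the block added Tnfaip3 (0.54, adjusted p = 0.000734). Nfkb2 did not pass there without replicate 3 or 4 (adjusted p = 0.123 and 0.0896), nor Nfkbiz without replicate 1, 3 or 4 (0.12, 0.182 and 0.211), and without replicate 2 Tnfaip3 passed (0.50, adjusted p = 0.0252), as Nfkbiz did in iCre (0.52, adjusted p = 0.0328).

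With TGFβ in LacZ, 4 of 10 passed, against 36.9% of all genes. Nfkbia fell to 13.8, 14, 13.9 and 15.7 CPM (log2 -0.93 ± 0.13, adjusted p = 0.000261), and Nfkbie fell from 11.3 to 13.9 CPM to 6.42 to 9.81 CPM (log2 -0.63 ± 0.14). Relb fell by 0.30 on the log2 scale. Rel rose from 10.7 to 17.5 CPM on average (log2 0.73 ± 0.14, adjusted p = 0.00217), and its libraries did not overlap with CTRL. With the replicate block Nfkbiz and Tnfaip3 passed as well, at -0.40 and 0.68 (42.0% of all genes). Relb did not pass without replicate 1, 3 or 4 (adjusted p = 0.0873, 0.12 and 0.104), and Tnfaip3 passed without replicate 2 (0.83, adjusted p = 0.000868). Summed CPM of fibroblast markers went from a range of 30400 to 47700 in CTRL to a range of 57200 to 66600 with TGFβ in LacZ. Pericyte and smooth muscle markers went from a range of 98.1 to 549 to a range of 660 to 1170, also without overlap, while the median of the cardiomyocyte markers went from 35.9 to 5.76. Of the fibroblast markers 3 rose and 3 fell, 1 of the 3 pericyte and smooth muscle markers rose, and 1 of the 2 cardiomyocyte markers fell. Their part in the TGFβ changes was not tested. In iCre, 5 of 10 passed with TGFβ, against 37.4% of all genes: Rela, Nfkbib and Tnfaip3 rose, and Nfkbia and Nfkbiz fell. Fibroblast markers moved there too, from a summed range of 20800 to 37000 without ligand to one of 46900 to 61800 with TGFβ, and 4 of the 10 rose and 3 fell. The pericyte and smooth muscle sum had medians of 813 and 1310, with overlap, and the cardiomyocyte sum of 30.5 and 9.44, and their part was not tested. The increase of Rela there, 0.24, became -0.21 when libraries were scaled by their totals alone, which moved the median of all genes from -0.11 to -0.55. Rela passed only with all replicates or without replicate 2, Tnfaip3 did not pass without replicate 1 or 4 (adjusted p = 0.116 and 0.0527), and Nfkbiz did not pass without replicate 3 or 4 (adjusted p = 0.0999 and 0.105).

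In iCre fibroblasts, IL-1β and TNFα still raised 8 of 10 members each, against 16.3% and 27.0% of all genes tested that passed in either direction (9.38% and 14.7% higher). With IL-1β, Rela and Rel did not pass, at 0.18 ± 0.07 and 0.29 ± 0.12 (log2, adjusted p = 0.144 and 0.128), and both passed with the replicate block. After the correction for GC content given below, Rela stood at -0.04, with or without the block, and did not pass. With TNFα, Nfkbiz and Rel did not pass, and Nfkbiz did with the block (0.35, adjusted p = 0.0437). With IL-1β, Nfkbie did not pass without replicate 1 or 3 (adjusted p = 0.0771 and 0.0597), nor Tnfaip3 without replicate 1 (0.0678). The median log2 fold change of the 10 members was 0.95 under IL-1β and 1.33 under TNFα (all genes 0.00 and -0.04). Summed fibroblast markers had medians of 26100 CPM without ligand, 25100 with IL-1β and 17000 with TNFα. The cardiomyocyte sum had medians of 30.5, 8.41 and 3.83. No marker passed with IL-1β. With TNFα 1 marker rose and 1 fell in each of the fibroblast, endothelial, and pericyte and smooth muscle sets. The part of these markers was not tested.

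**Figure D2:**
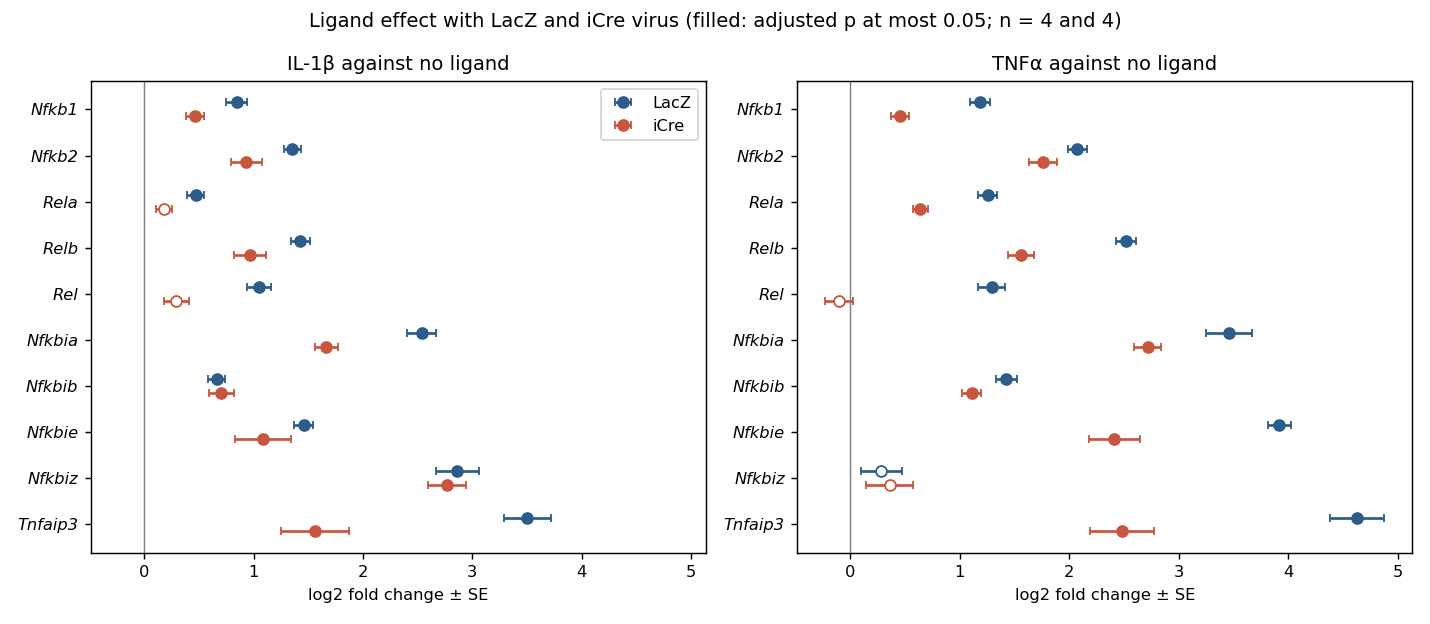
log2 fold change ± SE of each of the 10 genes with IL-1β (left) and TNFα (right) against no ligand, for LacZ (blue) and iCre (red), with 4 libraries in each group; filled circles passed an adjusted p of 0.05. With TNFα the circles of Rel sit at 1.29 in LacZ and -0.10 in iCre, and those of Tnfaip3 at 4.63 and 2.48, whereas the circles of Nfkbiz lie together under both ligands.

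The question of which responses differed with iCre was tested directly. Between iCre and LacZ without ligand or with bFGF, 0 of 10 members passed in edgeR, and 0 in DESeq2 with bFGF, against 0.0754% and 0.0% of all genes. Without ligand, 2 members had an unadjusted p under 0.05 and DESeq2 called 1. With bFGF no member had one. With the replicate block, Nfkb2, Nfkbiz and Tnfaip3 were higher in iCre without ligand, by 0.40, 0.43 and 0.40 on the log2 scale, and 14.5% of all genes passed. Nfkb2 also passed without replicate 2 (0.47, adjusted p = 0.038). With TGFβ, 2 of 10 passed, against 8.37% of all genes: Nfkb2 was higher in iCre (log2 0.36 ± 0.09, adjusted p = 0.0329) and Rel lower. Neither passed without replicate 1, 3 or 4, and the block added Nfkbie and Tnfaip3, at 0.54 and 0.75 (20.8% of all genes).

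With IL-1β, 5 of 10 members were lower in iCre than in LacZ, against 16.1% of all genes that passed in either direction and 8.98% that were lower. These were Nfkb1, Relb, Rel, Nfkbia and Tnfaip3, and in each the 4 iCre libraries lay below the 4 LacZ libraries. Nfkb1 did not pass without replicate 1, 3 or 4 (adjusted p = 0.0995, 0.122 and 0.0878), nor Relb without 3 or 4 (0.121 and 0.0797). With TNFα, 8 of 10 were lower, against 27.3% of all genes in either direction and 12.6% lower: all except Nfkb2 and Nfkbiz, again with no overlap. Over the 10 genes the difference had a median of -0.30 under IL-1β and -0.76 under TNFα (all genes 0.04 and 0.00). Markers of cell types moved in the same comparisons. Summed CPM of the 10 fibroblast markers was 36600 to 69700 in LacZ and 22800 to 35700 in iCre with IL-1β, and 25800 to 34600 and 15400 to 23400 with TNFα, without overlap, and 3 and 5 of the 10 were lower in iCre while 2 were higher with TNFα. Without ligand the sums overlapped, at 30400 to 47700 and 20800 to 37000. The 3 pericyte and smooth muscle markers had medians of 677 in LacZ and 823 in iCre with IL-1β, and of 196 and 875 with TNFα, and 1 and 2 of them were higher in iCre. Of the 6 macrophage and leukocyte markers 1 was higher in iCre with TNFα, and of the 2 cardiomyocyte markers 1 was higher with IL-1β. Their part in the differences of the 10 genes was not tested.

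Tnfaip3 had the largest differences. With IL-1β it stood at 54.3, 24.4, 48.7 and 44.6 CPM in iCre, where LacZ had 113 to 141 CPM (log2 -1.53 ± 0.21, adjusted p = 0.00106). With TNFα it stood at 102, 70, 93.1 and 58.4 CPM, where LacZ had 226 to 333 CPM (log2 -1.72 ± 0.20, adjusted p = 0.00036). The induction by TNFα was 24.8-fold in LacZ and 5.58-fold in iCre, and the interaction of ligand and iCre was -2.16 ± 0.39 (log2, adjusted p = 0.00126). For IL-1β it was -1.96 ± 0.40 (adjusted p = 0.00547). The interaction with IL-1β did not pass without replicate 3 (adjusted p = 0.0745) or without replicate 4.

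Rel lost its induction by TNFα. In iCre it stood at 11.2, 9.85, 9.46 and 8.59 CPM with TNFα, within or below the 9.79 to 12 CPM of iCre without ligand, while LacZ had 28.9, 29, 25.1 and 21.5 CPM. The interaction was -1.40 ± 0.17 (adjusted p = 7.38e-05) with TNFα and -0.77 ± 0.15 (adjusted p = 0.00429) with IL-1β. The latter did not pass without replicate 3 (adjusted p = 0.0815), nor after the correction for GC content given below. With TGFβ too, Rel stood at 12 to 13.3 CPM in iCre and 15.5 to 21.1 CPM in LacZ (log2 -0.51 ± 0.12, adjusted p = 0.0312). In no replicate number was it higher in iCre, and it did not pass without replicate 1, 3 or 4 (adjusted p = 0.0981, 0.157 and 0.149), nor after the GC correction. The interaction with TGFβ, of -0.51, did not pass (adjusted p = 0.12) and passed with the replicate block (adjusted p = 0.0431).

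All members except Nfkb2 and Nfkbia differed more between iCre and LacZ under TNFα than under the other conditions (sizes compared, not tested). Of these, Nfkbiz alone was higher in iCre. With TNFα, Nfkbie stood at 102, 57.5, 71.2 and 56.5 CPM in iCre against 170 to 209 CPM in LacZ, at an interaction of -1.52 ± 0.26 (adjusted p = 0.000868). Relb stood at 91.8, 70.4, 82.6 and 68.6 CPM against 150 to 182 CPM, at an interaction of -0.97 ± 0.14 (adjusted p = 0.000266). With IL-1β, Nfkbie overlapped between iCre, at 20.3 to 41.8 CPM, and LacZ, at 32.9 to 36.1 CPM, and its interaction of -0.38 ± 0.28 did not pass (adjusted p = 0.504).

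Nfkbia was lower in iCre under both ligands. With IL-1β it stood at 95.3, 77.2, 73.8 and 81 CPM and was 1.96-fold lower than in LacZ (log2 -0.97 ± 0.11, adjusted p = 0.000284). With TNFα it stood at 163, 194, 176 and 139 CPM and was 1.78-fold lower (adjusted p = 0.00884). The interactions were -0.89 ± 0.17 (adjusted p = 0.00309) and -0.76 ± 0.24 (adjusted p = 0.0414). The latter did not pass without replicate 1, 3 or 4 (adjusted p = 0.118, 0.0687 and 0.135).

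The 10 genes did not move alike. Nfkb2 stood at 321, 251, 317 and 252 CPM with TNFα in iCre and at 240 to 295 CPM in LacZ, with overlap and a log2 difference of 0.10 ± 0.12 (adjusted p = 0.599). Nfkb2 and Relb thus went apart: with TNFα the share of Nfkb2 in the Rel family was 32.3% ± 0.801 in LacZ and 45.2% ± 2.38 in iCre, and that of Relb 23.6% ± 0.791 and 14.7% ± 0.903. Nfkbiz stood at 270, 373, 301 and 299 CPM with IL-1β in iCre, where LacZ had 219 to 271 CPM. Every replicate was higher in iCre under both ligands, by 0.31 ± 0.11 with IL-1β and 0.49 ± 0.18 with TNFα (adjusted p = 0.0944 and 0.0643), and both values passed with the replicate block. The interactions of Nfkbiz were -0.11 ± 0.27 and 0.07 ± 0.31 (adjusted p = 0.902 and 0.965).

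**Figure D3:**
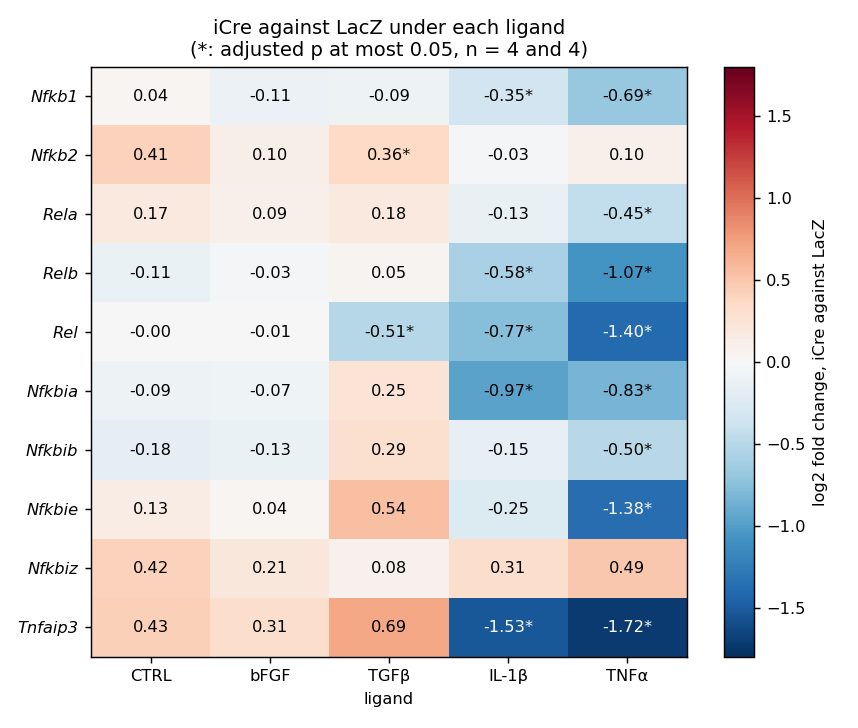
log2 difference of iCre and LacZ (4 libraries each) for the 10 genes under each ligand; colour and printed numbers give the difference (red higher in iCre, blue lower), and an asterisk marks an adjusted p of at most 0.05. All but 1 of the values that passed as lower stand in the IL-1β and TNFα columns, down to -1.53 and -1.72 for Tnfaip3, and the other is Rel with TGFβ at -0.51, while Nfkb2 with TNFα is 0.10 and Nfkbiz with TNFα is 0.49.

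In all, 3 of 10 interactions passed with IL-1β (Rel, Nfkbia and Tnfaip3, against 7.71% of all genes, 4.95% negative), and 7 of 10 with TNFα (Nfkb1, Rela, Relb, Rel, Nfkbia, Nfkbie and Tnfaip3, against 16.1% of all genes, 7.7% negative). With the replicate block, 7 passed with IL-1β, when 16.9% of all genes did: the 3 above and Nfkb1, Nfkb2, Rela and Relb. Without replicate 3 only Nfkbia passed with IL-1β, and without replicate 4 only Rel and Nfkbia did. Without replicate 2, Nfkb1 passed too (adjusted p = 0.0347). With bFGF and TGFβ 0 of 10 passed in edgeR (0.0% and 4.51% of all genes). Of those, 0 members with bFGF and 2 with TGFβ had an unadjusted p under 0.05, and DESeq2 called 0 and 2.

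The iCre libraries with TGFβ, IL-1β and TNFα differed from the rest in their dependence on GC content. The slope of log2 CPM on GC lay between 0.20 and 0.34 per 10% of GC in these 12 libraries and between -0.25 and 0.00 in the 28 others. After a correction of each library for its GC trend, 6 members were lower in iCre with IL-1β and 8 with TNFα, against 5.05% and 9.03% of all genes. Rel, with 42.5% GC, differed by -0.44 with IL-1β and -1.01 with TNFα after the correction, and its interaction with IL-1β no longer passed (-0.47, adjusted p = 0.131). Nfkb1, with 44.9% GC, no longer passed with IL-1β (-0.19, adjusted p = 0.174), while Rela and Nfkbib did. The part of GC content in these differences was not tested further. The differences of Nfkb2 and Rel with TGFβ, 0.36 and -0.51, did not pass after the correction. Replicate 1 of every group carries library numbers 31 to 40 and the other replicates 51 to 80. Without replicate 1, 4 and 8 members were lower in iCre with IL-1β and TNFα, and Nfkb1 with IL-1β did not pass (adjusted p = 0.0995).

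The balance of inhibitors and subunits was followed as the ratio of summed counts per kilobase of Nfkbia, Nfkbib and Nfkbie over the 5 subunits. In LacZ the ratio was 0.531, 0.603, 0.46 and 0.518 in CTRL, 0.336, 0.333, 0.358 and 0.368 with TGFβ, 1.15, 1.32, 1.06 and 1.07 with IL-1β, and 1.5, 1.81, 1.26 and 1.37 with TNFα. The ratio was thus below CTRL in every TGFβ library and above it in every IL-1β and TNFα library. It was 2.18-fold higher with IL-1β, 2.8-fold higher with TNFα and 1.51-fold lower with TGFβ (p = 0.0286 each, two-sided exact permutation test over 70 assignments, the smallest value 4 against 4 can give; 0.0464 after adjustment over 13 pairs). Paired by replicate number, the exact sign-flip test cannot go below p = 0.125, and none of the ratio differences here or in iCre passed under that pairing (adjusted p = 0.148 for those with p = 0.0286 above). With bFGF it overlapped with CTRL (p = 0.571, exact permutation test).

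In iCre the ratio was 0.45, 0.459, 0.398 and 0.459 without ligand, 0.807, 0.778, 0.705 and 0.79 with IL-1β, and 1.01, 1.2, 1.01 and 0.951 with TNFα. It was 1.75-fold and 2.36-fold higher with IL-1β and TNFα than without. Against LacZ it was 1.49-fold lower with IL-1β and 1.41-fold lower with TNFα, with no overlap (p = 0.0286 each, exact permutation test, adjusted 0.0464). Without ligand it was 1.19-fold lower in iCre, by the same p. With TGFβ it was 0.399, 0.337, 0.384 and 0.417 in iCre, which overlapped with iCre without ligand (p = 0.0857, exact permutation test) and with LacZ under TGFβ (p = 0.114, exact permutation test, log2 difference of iCre and LacZ 0.14). The difference of iCre and LacZ without ligand had p values of 0.0857 or more with other lengths, and since fewer pairs then stood at the smallest p, the adjusted value of all others became 0.0531.

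**Figure D4:**
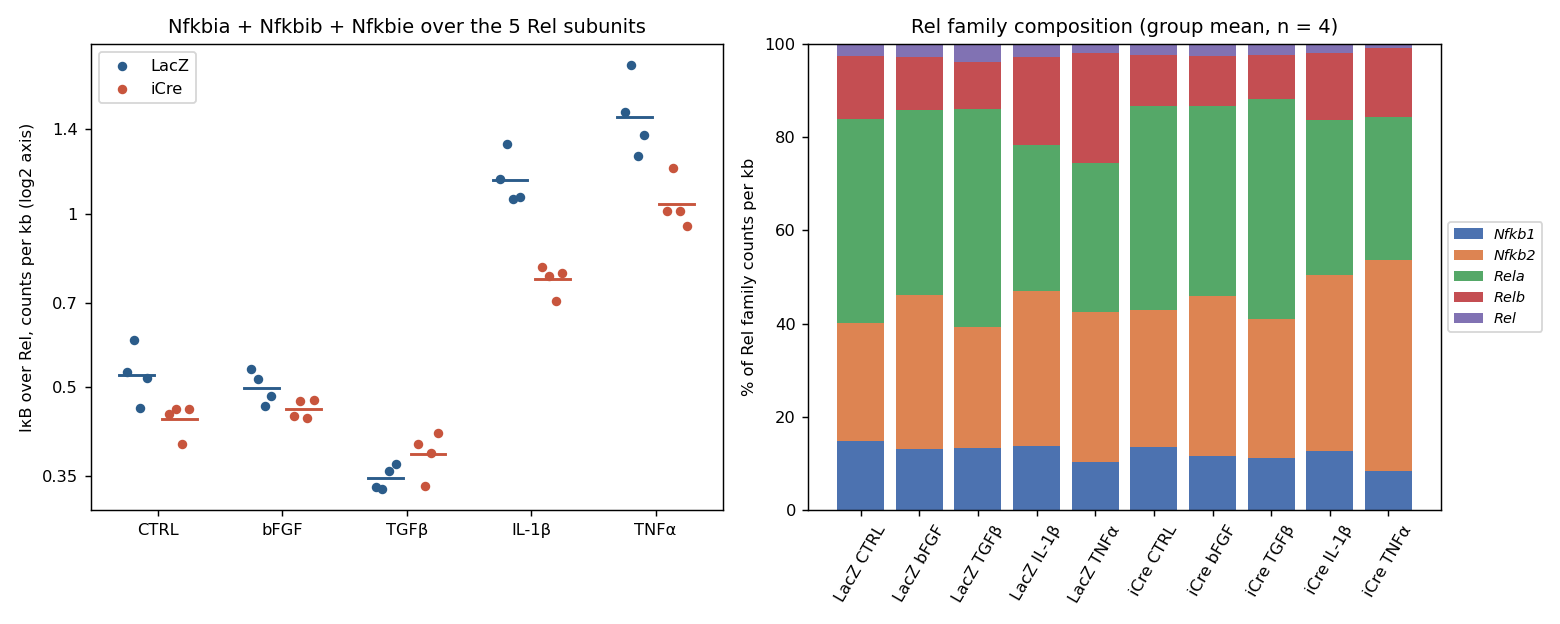
Left: ratio of counts per kilobase of Nfkbia, Nfkbib and Nfkbie over the 5 Rel family subunits in each library (log2 axis), for LacZ (blue) and iCre (red), with lines at geometric means of 4. Right: mean share of each subunit in the Rel family counts per kilobase of merged exons, by group. The ratio is 1.06 to 1.32 with IL-1β in LacZ and 0.705 to 0.807 in iCre, and the share of Nfkb2 is largest with TNFα in iCre, at 45.2%.

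Other genes of the pathway were taken from 3 lists, which were drawn up with earlier results of these data known. Of 26 genes for kinases and adaptors, 11 rose and 2 fell with IL-1β in LacZ, and 12 rose and 1 fell with TNFα, with medians of 0.23 and 0.26. With the replicate block 14 rose and 4 fell with IL-1β, when 16.3% of all genes rose, and 16 rose and 2 fell with TNFα. Over all genes tested 20.7% and 21.3% passed, 11.1% and 10.9% higher, with medians of -0.10 and -0.08. The genes with the largest changes encode the ubiquitin ligases cIAP2 (Birc3) and cIAP1 (Birc2) and TRAF3 (Traf3). Birc3, at 20.5 ± 1.83 CPM in CTRL (SD over 4 libraries), reached 97 ± 13.8 with IL-1β and 183 ± 19.1 with TNFα, and stood at 84 ± 18.2 with TNFα in iCre (log2 difference of iCre and LacZ -1.11, adjusted p = 0.000832). Birc2 went from 44 ± 3.1 to 97.6 ± 11.7 and 190 ± 14.5 CPM, and stood at 53.4 ± 25 with TNFα in iCre (-1.81, adjusted p = 0.00135). Traf3 reached 134 ± 13.3 CPM with TNFα in LacZ and 136 ± 14.3 in iCre, and its difference did not pass (adjusted p = 0.812). Of the others the rule named, Traf2 rose by 0.89 with IL-1β and Myd88, the adaptor of the IL-1 receptor, by 0.83 with TNFα. Under IL-1β 4 of the 26 genes were higher in iCre than in LacZ and 6 lower (10 lower with the replicate block, when 14.9% of all genes were), and under TNFα 4 were higher and 9 lower. Of all genes, 16.1% and 27.3% passed there, 8.98% and 12.6% lower.

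Of 20 other inhibitors and regulators, 7 rose and 3 fell with IL-1β (11 rose with the replicate block, when 16.3% of all genes did), and 11 rose and 3 fell with TNFα (medians 0.32 and 0.44), beside the same 20.7% and 21.3% of all genes, 11.1% and 10.9% higher. Tnip1, which encodes a partner of A20, went from 52.9 ± 4.56 CPM in CTRL to 157 ± 11.2 with IL-1β and 462 ± 52.1 with TNFα, and stood at 106 ± 30.7 with TNFα in iCre (interaction -2.04, adjusted p = 3.27e-05). Zc3h12a, the gene for the RNase regnase-1, rose from 9.03 ± 0.934 to 182 ± 26.8 CPM with IL-1β. Bcl3, a nuclear IκB gene like Nfkbiz, rose with both ligands, to 99.5 ± 9.9 and 80.8 ± 20.7 CPM from 26.3 ± 8.64. With TNFα Bcl3 was lower in iCre, at 53.2 ± 9.87 CPM (-0.58, adjusted p = 0.0408), and with IL-1β the difference did not pass (-0.20, adjusted p = 0.308). Its interaction did not pass with either (adjusted p = 1.0 and 0.474). Tnip3 rose from 0.217 ± 0.214 to 11.7 ± 2.17 CPM with TNFα and stood at 1.65 ± 0.379 in iCre. Traf1 was higher in iCre, at 8.23 ± 4 CPM with TNFα in LacZ and 20.3 ± 4.75 in iCre (1.33, adjusted p = 0.0119). The interactions of Tnip3 and Traf1 with TNFα did not pass (-0.81 and 0.43, adjusted p = 0.75 and 0.703).

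The list of 25 classical NF-κB targets holds genes that the study describes as TAK1-controlled in these same data, among them Nos2 and Sod2. Its counts are therefore description and not independent support. In LacZ, 20 of 25 classical NF-κB targets rose under IL-1β, and 21 rose under TNFα (medians 3.73 and 2.34), again beside 11.1% and 10.9% of all genes. Of these targets, 16 and 14 were lower in iCre under the respective ligand (medians -1.84 and -1.26), beside 8.98% and 12.6% of all genes. Negative interactions passed for 11 and 12 of them, beside 4.95% and 7.7% of all genes. Under the replicate block 17 interactions with IL-1β passed (16.9% of all genes in either direction), and 1 target was higher in iCre under either ligand. Saa3, an acute phase gene, stood at 3.81 ± 2.66 CPM in CTRL and 4470 ± 479 with IL-1β in LacZ, and at 202 ± 86.6 with IL-1β in iCre. Lcn2, the gene for lipocalin-2, reached 3000 ± 833 and 414 ± 122 CPM, and the chemokine gene Cxcl1 reached 1420 ± 479 and 114 ± 47.4 CPM. Nos2, the gene for inducible nitric oxide synthase, stood near 0 in CTRL (0.0916 ± 0.0929 CPM) and at 357 ± 117 with IL-1β in LacZ against 9.46 ± 4 in iCre. With TNFα the chemokine gene Ccl2 stood at 1970 ± 221 CPM in LacZ and 808 ± 267 in iCre, and Ccl20 at 6.85 ± 3.92 and 0.0996 ± 0.085.

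Likeness of patterns was described by Pearson's r over the 10 group means of log2 CPM, for the 13090 genes that averaged 1 CPM or more. With 10 points and large steps at IL-1β and TNFα, high values are common, and the nearest genes depended on the measure: 1 of the 30 named here was also among the 3 nearest by Spearman's rho. The median r over the 45 pairs of members was 0.85. Nfkbiz stood apart, with r between 0.03 and 0.49 to the other members, and the genes nearest to it were Spidr (0.98), Cebpb (0.93) and Cebpd (0.92), the last of which encode C/EBP transcription factors. By Spearman's rho its nearest genes were Vsir, Phlda1 and Fbxo33, and its values to the other members lay between -0.08 and 0.61. Rel had r between 0.16 and 0.69 to the other members, and was nearest to Tmem170b (0.95), Gng12 (0.94) and Rnf19a (0.94). Nfkbia was nearest to Adamts7 (0.99), Birc3 (0.99) and Relb (0.98), and Nfkbie to Tmco4 (0.98), Relb (0.97) and Mvp (0.97). Relb was nearest to Madcam1, Psmd10 and Nrp2, Nfkb1 to Nrp2, Relb and Tnip1, and Nfkb2 to Ifngr2, Sin3a and Prr13. Rela was nearest to Nfkbib, Ninj1 and Madcam1, Nfkbib to Hivep1, Stat6 and Rela, and Tnfaip3 to Gnptab, Micall2 and Csf1.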

How the data were processed

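Single-end poly-A RNA-seq reads of 40 libraries were checked with FastQC, aligned with STAR to mm10 and counted per gene with HTSeq 0.10.0. The authors deposited whole-number counts for 55414 identifiers. Neither the annotation release nor the strand setting is given in the sources used here. Totals lay between 25360947 and 66160732 counts, with a median of 36183962, and without molecular identifiers precision refers to reads. The labels give no animal for a replicate, while the study describes the 4 replicates of each group as biological and from male mice.

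Symbols, lengths and GC content came from GENCODE M21 (52081 identifiers, 99.57% of counts). Genes with at least 10 counts over all libraries (25210) were tested in edgeR 4.0.16 (R 4.3.3), by the quasi-likelihood test with TMM factors, on the 8 libraries of a pair of groups or 16 for an interaction, with Benjamini-Hochberg adjustment over all genes at 0.05. SE is the log2 fold change over the root of F. The script was tested on simulated data. DESeq2 1.42.0, other scalings and filters, a replicate block, a GC correction and leaving out each replicate were alternatives, and the length of the longest transcript was added after seeing the data. Same-numbered libraries deviated together (r 0.28 to 0.854 over 56 pairs, median 0.6), so replicate numbers were read as pairing the samples.

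Members and lists were chosen with earlier results of these data known. The text names the 10 members, Map3k7, up to 4 genes of each list with the largest change under IL-1β and TNFα in LacZ, and the 3 genes nearest to each member by Pearson's r.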

Additional observations from a re-analysis of the deposited data

Results flagged for a closer look

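A single library stood far from the other 3 of its group in 4 of 110 groups of values examined, and chance alone gives about 1 in 20. Nfkbia in LacZ with TGFβ was 15.7 CPM in replicate 4 and 13.8 to 14 CPM in the others. Nfkbiz with bFGF was 99.9 CPM in replicate 2 of LacZ, where the others had 49.5 to 57.4 CPM, and 119 CPM in replicate 2 of iCre, where the others had 55.2 to 64.9 CPM. Replicate 2 was the highest of its group for Nfkbiz in all 10 groups. The ratio of IκB to Rel family counts per kilobase was 0.398 in replicate 3 of iCre without ligand and 0.45 to 0.459 in the others.

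The effect of a ligand differed between LacZ and iCre by a tested interaction for 10 pairs of gene and ligand. With IL-1β the log2 differences were -0.77 for Rel, -0.89 for Nfkbia and -1.96 for Tnfaip3. With TNFα they were -0.74 for Nfkb1, -0.63 for Rela, -0.97 for Relb, -1.40 for Rel, -0.76 for Nfkbia, -1.52 for Nfkbie and -2.16 for Tnfaip3. All 10 were negative, which means a smaller response in iCre.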

How the results depend on the processing

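Counts of members that passed moved by over 1.5 times as follows. With libraries scaled by totals alone, 1 passed with bFGF and 7 with TGFβ in LacZ. That scaling moved the median of all genes with TGFβ from -0.17 to -0.57 in LacZ and turned the sign of Nfkb2 and Rela, to -0.25 and -0.20 in LacZ and -0.31 and -0.21 in iCre. With DESeq2, 7 passed with TGFβ in LacZ, 1 between iCre and LacZ without ligand, and 2 and 6 interactions with TGFβ and IL-1β. With DESeq2's size factors in edgeR, 5 interactions with IL-1β passed, with edgeR's expression filter 1 with TGFβ and 5 with IL-1β, and with all 40 libraries in a fit 1 and 5, beside 4 differences of iCre and LacZ with TGFβ. With the GC correction, 1 passed with bFGF in LacZ, 0 between iCre and LacZ with TGFβ, and 5 interactions with IL-1β. With the replicate block, 2 passed with bFGF in iCre, 3 and 4 between iCre and LacZ without ligand and with TGFβ, and 1 and 7 interactions with TGFβ and IL-1β. With the block and the GC correction, 8 passed with TGFβ in LacZ, 4 with bFGF in iCre, 3, 1 and 8 between iCre and LacZ without ligand, with TGFβ and with IL-1β, and 6 interactions with IL-1β. Apart from the calls given beside the results, the block changed no call in the fits without the GC correction.

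With 1 replicate left out, counts lay between 0 and 3 (bFGF), 3 and 5 (TGFβ) and 9 and 10 (TNFα) in LacZ, and between 0 and 1 (bFGF), 2 and 5 (TGFβ) and 6 and 8 (IL-1β) in iCre. Between iCre and LacZ they lay between 0 and 1 without ligand, 0 and 3 with TGFβ and 3 and 5 with IL-1β, for interactions between 1 and 4 with IL-1β and 6 and 7 with TNFα, and between the ligands from 8 to 9.

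The log2 ratio of IκB to Rel counts against CTRL, for TGFβ, IL-1β and TNFα in LacZ, was -0.51, 0.97 and 1.57 without division by length, -0.55, 1.13 and 1.55 with the longest transcript, and -0.59, 1.12 and 1.49 with the replicate block. For IL-1β and TNFα in iCre it was 0.71 and 1.26, then 0.81 and 1.31, then 0.80 and 1.24. Between iCre and LacZ without ligand, with IL-1β and with TNFα it was -0.22, -0.47 and -0.53, then -0.23, -0.55 and -0.47, then -0.25, -0.57 and -0.50. None passed after adjustment: with either other length the adjusted p was 0.0531 or more, the block allows no p below 0.125, and 3 against 3 none below 0.1. Without 1 replicate these 8 values lay between -0.67 and -0.50, 1.096 and 1.147, 1.45 and 1.51, 0.79 and 0.82, 1.19 and 1.30, -0.28 and -0.21, -0.62 and -0.51, and -0.56 and -0.47. With the longest transcript the shares in CTRL were 30.4% for Nfkb1, 21.3% for Nfkb2, 35.1% for Rela, 11.4% for Relb and 1.83% for Rel. By Spearman's rho the median over pairs of members was 0.60.

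Of 180 values of single members, 120 kept their call under every alternative, with no change of sign where a value passed. There were 93 sign changes of values that passed neither in the main test nor under the alternative, none over 0.241 in size. The cause of these changes was not tested.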
